A study of Canis lupus familiaris with 51 samples.

Results

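The karyopherins are the receptors that carry proteins and RNA through the pores of the nuclear envelope. The genes described here were 10 members of this machinery, taken by their names: the importin alpha genes KPNA1, KPNA2 (listed on the array as LOC480469), KPNA3, KPNA4 and KPNA6, the importin beta genes KPNB1 and TNPO1, the exportins XPO1 and CSE1L, and the GTPase RAN. Every probe whose gene name equals one of these names was used, which gave 31 of the 43603 probes on the array. Within a gene, probes are numbered from the brightest down. The study chose KPNA2 as a marker gene on its reference tumors, which are a part of the tumors used here. Its relation to proliferation is therefore not independent evidence.

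An importin alpha binds the nuclear localization signal of a cargo and is itself carried by importin beta 1, the product of KPNB1. RAN in its GTP-bound form releases the cargo inside the nucleus, and CSE1L then returns the empty importin alpha to the cytoplasm. XPO1 exports proteins that carry a leucine-rich signal, and TNPO1 imports RNA-binding proteins without an adaptor. In mitosis, when the nuclear envelope is open, RAN and the importins control the release of spindle assembly factors such as TPX2.

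The samples were 51 cutaneous mast cell tumors (MCTs) of dogs, a common skin tumor of this species, each from the central part of the mass. Each is represented here by 1 one-color Agilent canine array. By the labels, 9 dogs were Boxers, 9 Labrador Retrievers, 14 Crossbred and 17 of another breed, and 2 had no breed given. Sex was given for 49 dogs (19 males and 30 females), and age for 49, from 3 to 14 years. The study sorts the tumors into differentiated and undifferentiated classes; these classes were not used as groups here, and the members were set against a continuous proliferation score. The score is the mean, over 32 genes of S phase and mitosis, of each gene's log2 signal minus its mean over the tumors, and none of its genes is a member. It ran from -1.32 to 1.99, with a median of -0.14 and a largest gap of 0.41 between neighboring tumors.

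Between 59.4% and 74.8% of the probes were well above background on an array, and the arrays came from 15 slides and 9 scan sessions. The mast cell markers measured here were well above background on all 51 arrays, with median log2 signals of 16.82 for CMA1 (chymase), 16.78 for FCER1A (IgE receptor) and 13.31 for the receptor KIT. No 2 arrays were identical. Of the 31 member probes, 28 were well above background on all 51 arrays. The exceptions were KPNA6 probe 2 on 32 arrays, RAN probe 3 on 45 and KPNA3 probe 5 on 0, and no level is given for the last of these.

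The probes that carry the main results are single strands of 60 bases, shown here because the reading of each gene rests on what its probes match. KPNA2 probe 2 lies at chr9:15677800-15678118 on the minus strand and its 60 bases are spread over 319 bases of the genome. The genome build of these positions is not named in the sources used here.

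KPNA2 probe 2: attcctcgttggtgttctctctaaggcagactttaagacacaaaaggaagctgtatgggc

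The RAN probes were of both orientations. RAN probe 1 is at chr26:4442226-4442285 and probe 2 at chr26:4442603-4442662, both on the minus strand, while probe 3 is at chr26:4442618-4442677 on the plus strand. In capitals are the 45 bases in which probes 2 and 3 are each other's reverse complement. Probe 3 thus does not match the strand that probes 1 and 2 match, and it is kept here by its gene name. It was far dimmer, with a mean log2 signal of 5.08 against 13.57 for probe 1 and 12.8 for probe 2. What probe 3 reports was not tested.

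RAN probe 1: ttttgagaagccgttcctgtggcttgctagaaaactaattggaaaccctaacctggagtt

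RAN probe 2: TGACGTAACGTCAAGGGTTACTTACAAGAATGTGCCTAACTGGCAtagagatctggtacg

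RAN probe 3: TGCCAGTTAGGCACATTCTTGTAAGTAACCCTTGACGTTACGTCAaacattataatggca

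For XPO1, the probe that passed the test below was probe 2, at chr10:64694431-64694490, and it is shown beside probe 3, at chr10:64698491-64701342, which was not called. Both are on the minus strand, and the bases of probe 3 are spread over 2852 bases of the genome.

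XPO1 probe 2: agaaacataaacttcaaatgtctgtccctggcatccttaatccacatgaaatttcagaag

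XPO1 probe 3: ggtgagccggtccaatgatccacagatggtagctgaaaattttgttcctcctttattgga

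Probes of different members had little sequence in common. The longest run that a member probe shared, on the same strand, with a probe of another member was between 7 and 10 bases, and the longest shared with a probe of any other gene on the array was 17 bases, for XPO1 probe 1. GC content of the member probes was between 35% and 45%.

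KPNA2 and RAN rose with the proliferation score in every probe, though RAN probe 3 is of the opposite strand. KPNA6 and XPO1 rose in 1 probe each, and KPNA1, KPNA3, KPNA4, KPNB1, TNPO1 and CSE1L in none. The fitted fold per log2 unit of the score was 1.63 for KPNA2, 1.22 for KPNA6, 1.21 for RAN and 1.11 for XPO1, and between 0.999 and 1.09 for the other 6 genes. By limma, with Benjamini-Hochberg adjustment over all probes and a call at an adjusted p under 0.01, 7 of the 31 member probes rose with the score and 0 fell. Of all probes, 8.12% were called, 4.52% as rising and 3.59% as falling. In a fit to the 29922 probes well above background on at least 26 arrays, 3656 were called, with the same 7 member probes among them. The 7 probes were both of KPNA2, the 3 of RAN with the opposite-strand probe among them, 1 of the 2 of KPNA6 and 1 of the 3 of XPO1. In whole biopsies, fewer cells of a type and less RNA per cell cannot be told apart.

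**Figure D1:**
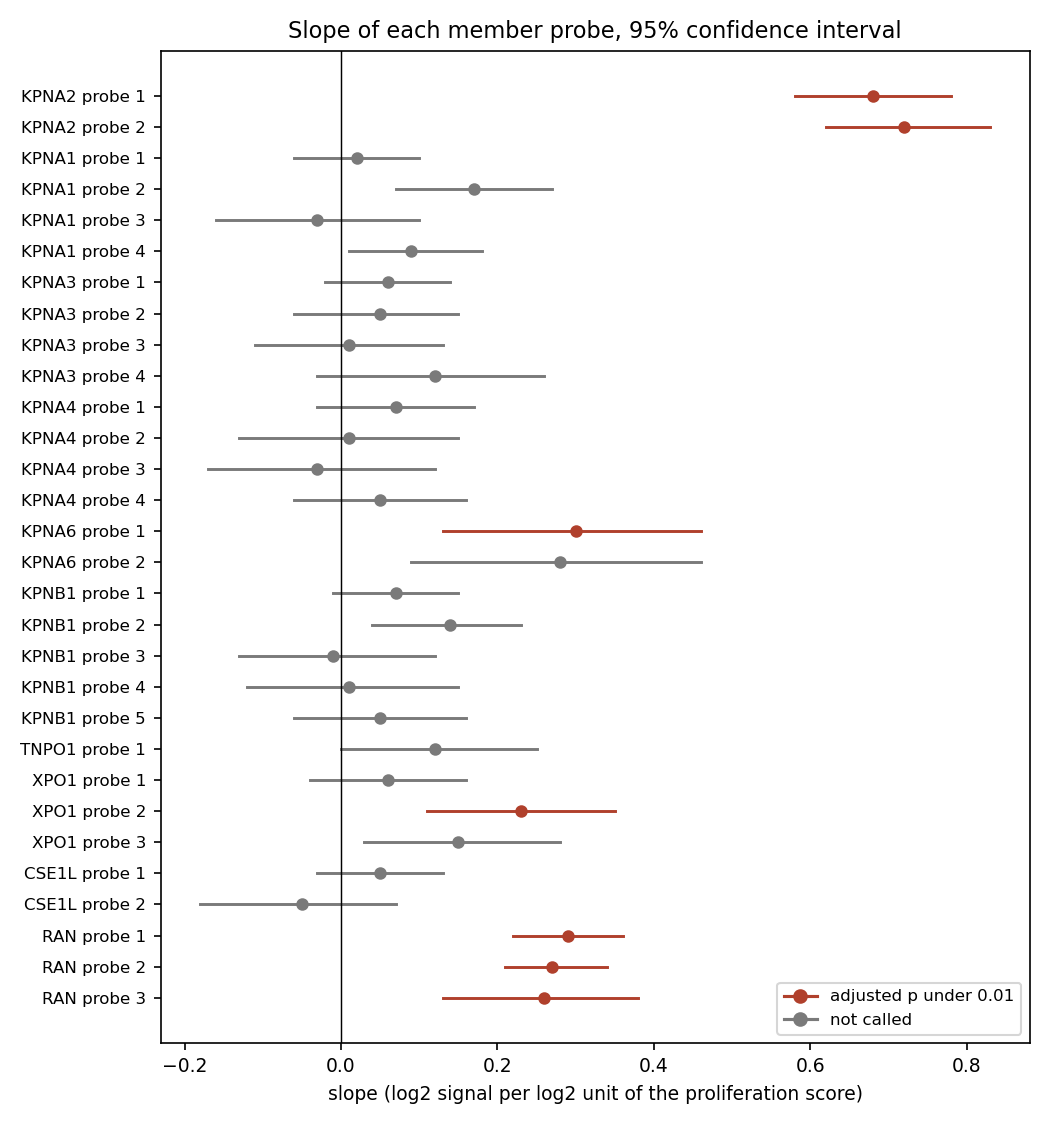
Slope of each of 30 member probes on the proliferation score over the 51 tumors, in log2 signal per log2 unit of the score, with its 95% confidence interval; red marks an adjusted p under 0.01. KPNA2 probes lie at 0.68 and 0.72, RAN probes between 0.26 and 0.29, and most other intervals include 0.

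KPNA2 is an importin alpha adaptor. Its log2 signal, the mean of its 2 probes, was 10.17 in the lowest tumor, 11.03 in the median tumor and 13.01 in the highest, a 7.15-fold range. The highest tumor, LM0, was also the one with the highest score, and the next were T90 at 12.57 (score 1.36) and T114.1 at 12.33 (score 1.38), so the upper end of KPNA2 was made of tumors with a high score. The slope was 0.68 ± 0.0483 for probe 1 (SE, n = 51, limma adjusted p = 1.44e-16) and 0.72 ± 0.0525 for probe 2 (limma adjusted p = 3.04e-16). The 2 probes followed each other with r = 0.97. With normexp background correction the slopes were 1.12 and 1.13. The score was then recomputed from the normexp values, so its log2 unit is not that of the main fit. The size of these slopes cannot be set against 0.68 and 0.72.

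The correlation of KPNA2 with the score was r = 0.903 and rho = 0.816, each with a permutation p = 1e-05, the smallest that 100000 permutations can give, and an adjusted p of 5e-05 over 20 relations. Without the 2 tumors farthest from the median score, LM0 and T9.1, r was 0.882. Within the 6 scan sessions with at least 6 tumors, r was between 0.848 and 0.982. Within the 4 breed groups it was between 0.878 and 0.919, and it was 0.961 in males and 0.804 in females. The sign was the same in each of these subsets.

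The other importin alpha genes had smaller slopes. KPNA1, whose product belongs to another subfamily of adaptors than KPNA2, had log2 signals from 9.54 to 10.71 with a median of 9.97. Its 4 probes had slopes from -0.03 to 0.17, and the steepest, probe 2, missed the threshold with a limma adjusted p of 0.0143. It was called with normexp background correction (slope 0.28 on the recomputed score, limma adjusted p = 0.00447) and with the score taken as a median (slope 0.17, limma adjusted p = 0.00838). The KPNA1 probes correlated with each other at r from 0.26 to 0.72, so that the probes of this gene did not all report the same differences. Its 2 highest tumors were T57.1 at 10.71 and T114.1 at 10.7, both with a high score (1.43 and 1.38), but the gene's r with the score was 0.227 (permutation adjusted p = 0.197).

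KPNA3 and KPNA4, adaptors that are close paralogs of each other, had no called probe. KPNA3 ran from 8.73 to 9.99 with a median of 9.14, its slope was 0.06 ± 0.0424 (SE, n = 51), and its r with the score was 0.187 (permutation adjusted p = 0.314). KPNA4 ran from 9 to 10.28 with a median of 9.69, its slope was 0.03 ± 0.0534, and its r was 0.0713 (permutation adjusted p = 0.776). The 95% confidence intervals of these slopes were -0.03 to 0.14 for KPNA3 and -0.08 to 0.13 for KPNA4.

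KPNA6, an adaptor of the same subfamily as KPNA1, had a slope between those of KPNA3 and KPNA2. Its log2 signal was 4.18 in the lowest tumor, 5.78 in the median and 7.01 in the highest. The slope of probe 1 was 0.3 ± 0.0802 (limma adjusted p = 0.00765), and that of probe 2, which was dim, 0.28 ± 0.091 (limma adjusted p = 0.0301). The slope of probe 2 was 0.08 with normexp and its recomputed score (limma adjusted p = 0.0698). With scan session as a block it was 0.3 and called (limma adjusted p = 0.00397). For the mean of both probes, the correlation with the score was r = 0.462 and rho = 0.415 (permutation adjusted p = 0.00236 and 0.00857), and r was 0.343 without the 2 tumors farthest from the median score. Both ends of KPNA6 were tumors with a score near 0, namely T6.2, the array with the lowest share of probes well above background (59.4%), at 4.18, and T135 at 7.01. Probe 1 was not called with the score from the study's markers (limma adjusted p = 0.0126) or without LM0 and T9.1 (0.106). Without LM0 probe 1 was no longer called (slope 0.27, limma adjusted p = 0.0318), and without T6.2 probe 2 was called as well (slope 0.28, limma adjusted p = 0.00764).

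KPNB1, the import receptor that all importin alpha adaptors depend on, had no called probe. Its log2 signal ran from 9.13 to 10.42 with a median of 9.67, and its 2 highest tumors were LM0 at 10.42 and T90 at 10.31, which were also the highest for KPNA2. Its 5 probes had slopes from -0.01 to 0.14, 0 of them called, with the lowest limma adjusted p at 0.0339 for probe 2. At gene level r was 0.169 (permutation adjusted p = 0.364), and it was -0.00143 without LM0 and T9.1. With normexp background correction probe 2 was called, at a slope of 0.25 on the recomputed score (limma adjusted p = 0.00754).

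TNPO1, measured by 1 probe, ran from 10.2 to 12.64 with a median of 11.91. The lowest value was that of T135 alone, and the next lowest tumor was at 11.39. The slope was 0.12 ± 0.0618 (limma adjusted p = 0.188) and r was 0.277 (permutation adjusted p = 0.123).

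Of the exportins, XPO1 had 1 called probe and CSE1L none. XPO1 ran from 9.47 to 11.39 with a median of 10.05. The top value was LM0, and the next tumor, T90, was at 10.62. The slopes were 0.06, 0.23 and 0.15 for probes 1, 2 and 3, with limma adjusted p-values of 0.516, 0.00541 and 0.0824. Probe 2 was not called with scaling to the 75th percentile (limma adjusted p = 0.0119), the score from the study's markers (0.031) or sex and age as covariates (0.0518). Over the mean of the 3 XPO1 probes, r with the score was 0.362 (permutation adjusted p = 0.0238) and rho was 0.259 (permutation adjusted p = 0.148). This relation rested on the tumors with the highest scores: without LM0 and T9.1 r was 0.143, and without LM0 alone it was 0.208 and probe 2 had a slope of 0.14 (limma adjusted p = 0.0796). Tumor T57.1, with a score of 1.43, had the lowest XPO1 value of all.

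CSE1L, the exportin that recycles importin alpha, ran from 9.2 to 10.13 with a median of 9.61, the narrowest range of the 10 genes at 1.91-fold. This is the range of the mean of 2 probes that correlated at r = 0.42. Each alone had a wider range, from 11.84 to 12.92 for probe 1 and from 5.95 to 7.78 for probe 2. Its slope was 0, with a 95% confidence interval of -0.09 to 0.08, and its r with the score was -0.00632 (permutation adjusted p = 0.978). The slopes of its probes were 0.05 and -0.05, with limma adjusted p-values of 0.484 and 0.678.

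RAN, the GTPase that gives transport its direction, rose with the score at a smaller slope than KPNA2. Its log2 signal, the mean of its 3 probes, was 10 in the lowest tumor, 10.47 in the median and 11.26 in the highest, a 2.39-fold range. The probes had means of 13.57, 12.8 and 5.08, so that the dim probe 3 pulls this level below that of probes 1 and 2. The highest tumors were T90 at 11.26 (score 1.36), LM0 at 11.1 (score 1.99) and T115 at 10.99 (score 1.22). The slopes were 0.29 ± 0.0335 for probe 1 and 0.27 ± 0.0316 for probe 2 (limma adjusted p = 3.13e-09 and 3.03e-09), whose values followed each other with r = 0.96. RAN probe 3, on the opposite strand, was much less like them (r = 0.34 with probe 2 and 0.37 with probe 1) but had a like slope of 0.26 ± 0.0619 (limma adjusted p = 0.00254). Its call was lost in the fit that held sex and age (limma adjusted p = 0.0151). With normexp background correction the slopes of the 3 RAN probes on the recomputed score were 0.49, 0.48 and 0.13. The correlation of RAN with the score was r = 0.824 and rho = 0.763, each with a permutation adjusted p of 5e-05, and r was 0.806 without the probe of the opposite strand. The slope of the gene was 0.27 with its 3 probes and 0.28 without probe 3. With all 3 probes, r was 0.787 without LM0 and T9.1. It was between 0.694 and 0.952 within scan sessions, between 0.785 and 0.924 within breed groups, and 0.867 in males and 0.71 in females.

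**Figure D2:**
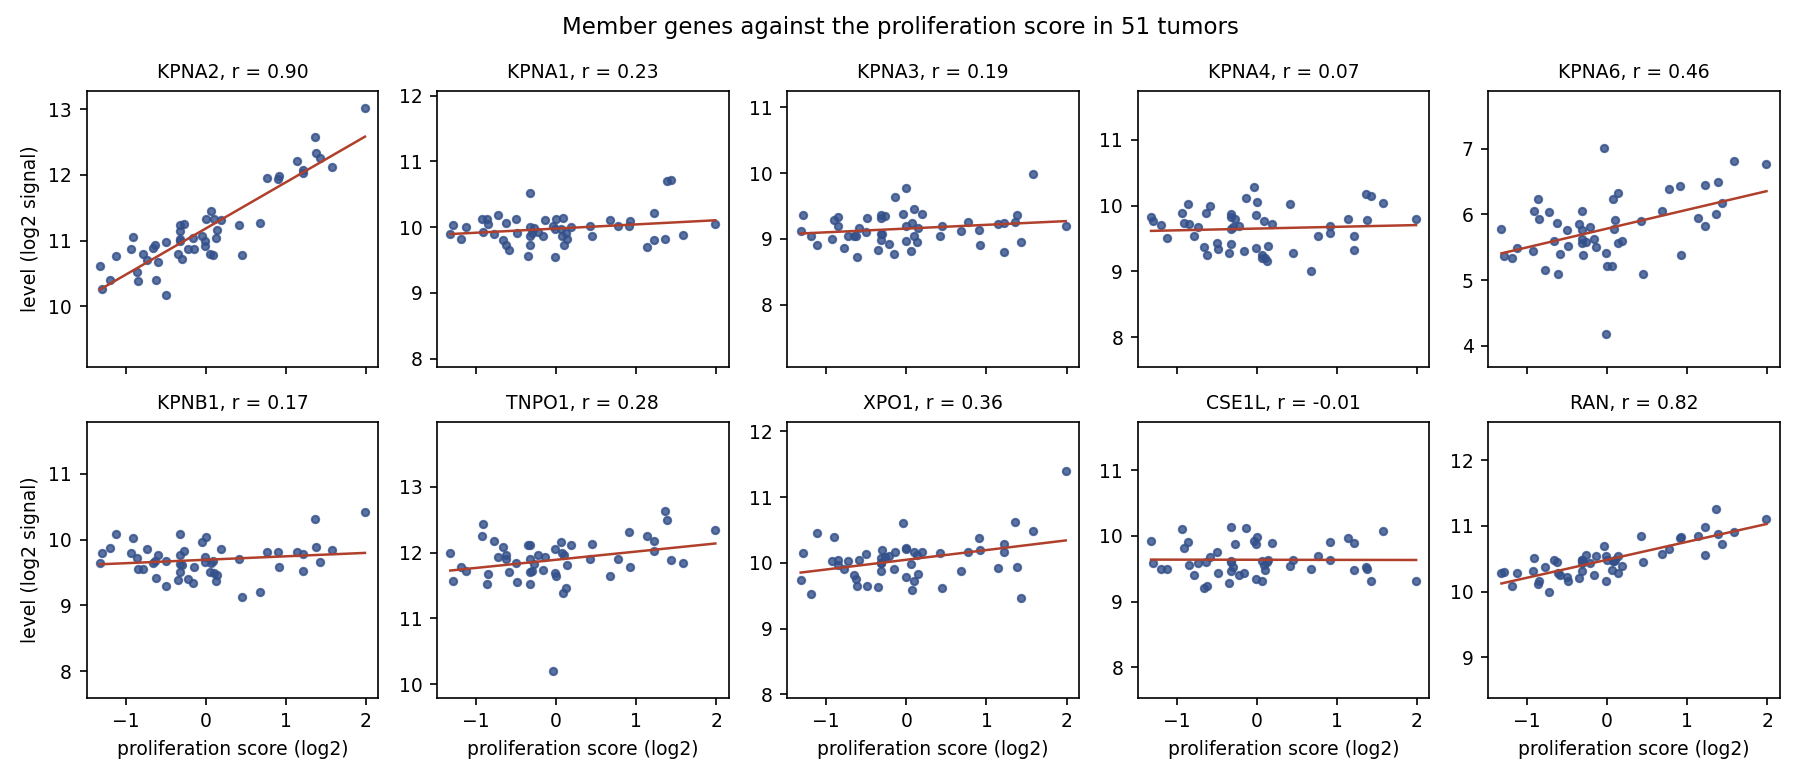
Log2 signal of each member gene (mean of its probes) against the proliferation score, 1 point per tumor (n = 51), with the least-squares line; every panel spans the same number of log2 units. KPNA2 (r = 0.90) and RAN (r = 0.82) climb across the whole range of the score, XPO1 has a single high tumor at the right end, and CSE1L (r = -0.01) is level.

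The slopes of the members were compared in 17 pairs of genes, each by a permutation test on the difference of their log2 signals over the 51 tumors. The study chose KPNA2, and none of the other 9 genes, as a marker on a part of these same tumors. Its larger slope is therefore not independent evidence that it stands alone. The KPNA2 slope was larger than that of each of the other 9 genes, by 0.42 for KPNA6 to 0.7 for CSE1L. Each of these had a permutation p = 1e-05, the smallest that 100000 permutations can give, and an adjusted p of 1.42e-05. Against RAN the difference was 0.43 (95% confidence interval 0.34 to 0.51). The RAN slope in turn was larger than those of KPNA1, KPNA3, KPNA4, KPNB1 and CSE1L by 0.21 to 0.27, with adjusted permutation p-values of at most 8.5e-05. It was larger than that of XPO1 by 0.13 (permutation adjusted p = 0.0158) and than that of TNPO1 by 0.15 (permutation adjusted p = 0.025). Between RAN and KPNA6 the difference was -0.01, with an interval of -0.18 to 0.15 (permutation adjusted p = 0.866), so no order of these 2 can be given. These are slopes of array signals, and probes can differ in how far they compress a change.

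**Figure D3:**
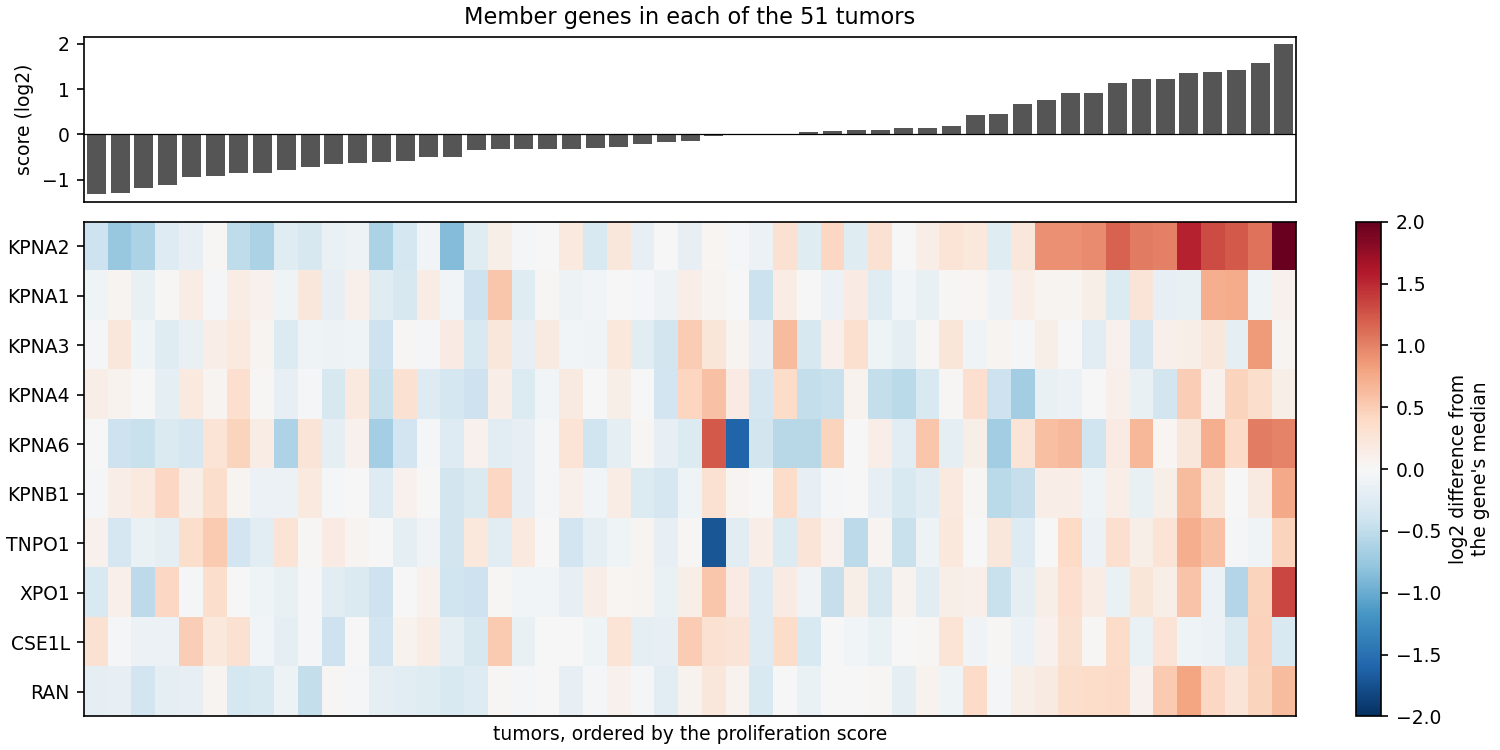
Score (bars, log2) and member genes (colors, log2 difference from each gene's median) in the 51 tumors, from the lowest score at the left to the highest at the right. KPNA2 turns red toward the right and RAN does so more faintly, while KPNA6 is lowest in T6.2 and TNPO1 in T135, both at scores near 0.

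The members did not vary as 1 block. KPNA2 and RAN were correlated at r = 0.86 over the 51 tumors, which share the score and the arrays. The 28 pairs among the other 8 genes had r from -0.18 to 0.66 with a median of 0.24. Their strongest pairs were KPNB1 with XPO1 (r = 0.66), KPNA3 with CSE1L (r = 0.65) and KPNB1 with KPNA4 (r = 0.62). KPNA2 reached 0.54 with KPNA6, 0.47 with XPO1 and 0.45 with KPNB1, but 0.09 with CSE1L. TNPO1 was near 0 or below it with 6 of the members other than KPNA2 and RAN, between -0.18 and -0.01, and 0.12 with KPNB1. These coefficients are descriptions and were not tested.

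**Figure D4:**
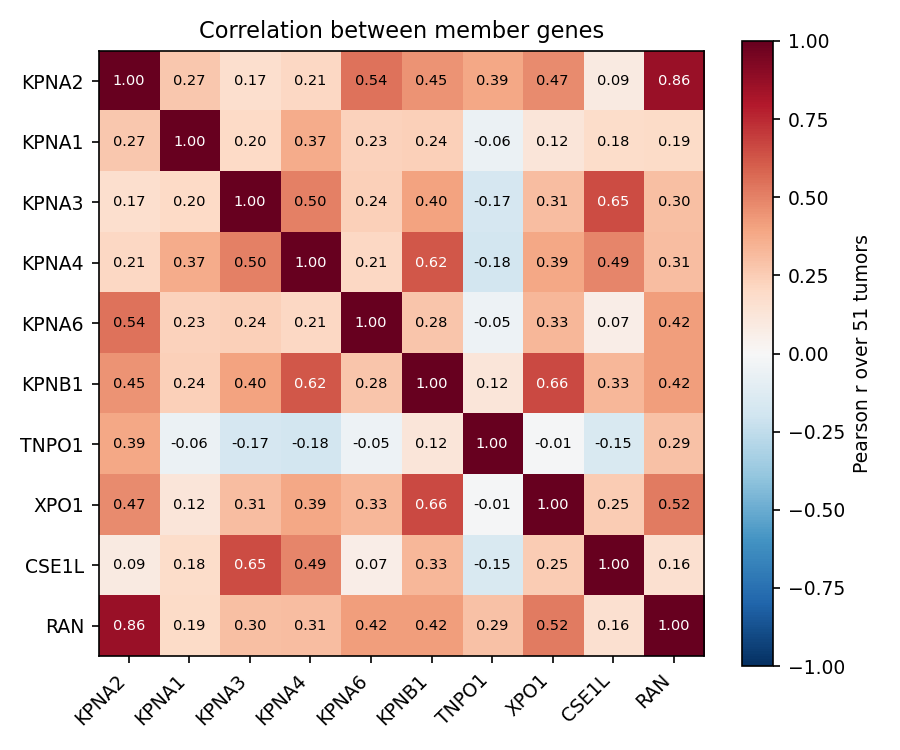
Pearson r between the log2 signals of each pair of member genes over the 51 tumors. The KPNA2 and RAN cell holds 0.86, and the cells among KPNA3, KPNA4, KPNB1 and CSE1L hold 0.33 to 0.65.

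The genes whose pattern was most like that of KPNA2 over the 51 tumors, among 9991 named genes well above background on at least 26 arrays, were UBE2S (r = 0.934), CCNB3 (0.911), GSG2 (0.91), DLGAP5 (0.901), SKA3 (0.898), CCNA2 (0.894), CDC6 (0.89), SPC25 (0.89), MCM10 (0.889) and DNPH1 (0.886). UBE2S extends ubiquitin chains for the anaphase-promoting complex, GSG2 is the histone kinase haspin, DLGAP5, SKA3 and SPC25 act at the spindle and kinetochore, CDC6 and MCM10 start DNA replication, CCNA2 and CCNB3 are cyclins, and DNPH1 is a nucleotide hydrolase. CCNA2 and DLGAP5 are themselves in the score, and UBE2S is among the marker genes the study chose on a part of these tumors. For RAN they were GSG2 (r = 0.871), POLE (0.855), the catalytic subunit of a replicative DNA polymerase, and CDC6 (0.841). GSG2 and CDC6 thus stood on both lists.

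The other members had other genes at their side. ANAPC10, a subunit of the anaphase-promoting complex, was among the 3 nearest genes of both KPNA3 and CSE1L, with AP1AR (r = 0.765), SUPT16H (0.736) and ANAPC10 (0.718) for KPNA3, and ANAPC10 (0.755), DIS3 (0.743) and RNF219 (0.728) for CSE1L. For KPNA4 they were LCP2 (0.781), a signaling adaptor of blood cells, CEP170 (0.748) and ACTR2 (0.746). KPNB1 was closest to ANAPC7 (0.769), MOGS (0.761) and KLHL20 (0.727), and XPO1 to C27H12orf4 (0.78), BNIP1 (0.761) and MTO1 (0.761). KPNA1 was closest to SLC47A2 (0.753), IL23A (0.741) and C7H18orf25 (0.729). KPNA6 was closest to SF3B3 (0.656), CIAPIN1 (0.643) and CSTF2 (0.643), and TNPO1 to CDCA7L (0.674), MACROH2A2 (0.663) and RHOQ (0.627). Of these genes of the other 8 members, none is in the score.

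Among the karyopherins that are not members, the same test was read for 14 genes, 1 probe each, the brightest. Of these 2 rose with the score, 1 fell and 11 were not called, with a median slope of 0.04, where 7.28% of 11695 named genes rose, 4.22% fell and the median was 0. The highest slopes were those of XPOT, the exportin for transfer RNA (0.33 ± 0.0608, limma adjusted p = 6.75e-05), and TNPO2 (0.29, limma adjusted p = 0.182, well above background on 9 arrays). The lowest were TNPO3, which imports splicing factors and fell by 0.14 per log2 unit (limma adjusted p = 0.00339), and IPO8 (-0.07, limma adjusted p = 0.27). The second gene that rose was IPO5 (0.15, limma adjusted p = 0.00208), an importin for histones and ribosomal proteins, named after its value was seen. By the same reading 3 of the 10 members rose, those of KPNA2, KPNA6 and RAN, and the median slope over the 10 was 0.07.

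Of 9 genes listed as regulators, carriers or binding proteins of RAN, 7 were measured. Of these 3 rose, 0 fell and the median slope was -0.04, where 7.28% of the named genes rose and 4.22% fell. RANGRF (0.3, limma adjusted p = 0.000272), a RAN-binding release factor, and NUTF2 (0.26, limma adjusted p = 5.22e-06), which carries RAN-GDP back into the nucleus, were the highest. RANBP1, named after its value was seen, rose as well (0.22, limma adjusted p = 0.00189). RANBP9 (-0.1, limma adjusted p = 0.231) and RANBP3 (-0.09, limma adjusted p = 0.171) were the lowest. NUTF2 correlated with KPNA2 at r = 0.73.

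Of 25 nucleoporins, the proteins of the pore itself, 6 rose and 0 fell, with a median slope of 0.1 and 22 slopes (88%) above 0, where 7.28% of the named genes rose and 50.3% had a slope above 0. The highest were NUP210L (0.85, limma adjusted p = 0.000735, well above background on 22 arrays) and NUP155 (0.37, limma adjusted p = 4.13e-05), and the lowest were NUP210 (-0.1, limma adjusted p = 0.475) and NUP88 (-0.06, limma adjusted p = 0.52). The other 4 that rose, NUP107, NUP50, NUP43 and NUP35, were named after their values were seen and had slopes from 0.22 to 0.3. The 32 genes that make the score, of 39 listed, had a median slope of 1.04, and 26 rose and 6 were not called, which is no finding. Of the 32, 30 were well above background on at least 26 arrays, while KIF20A was on 6 and CENPE on 0.

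**Figure D5:**
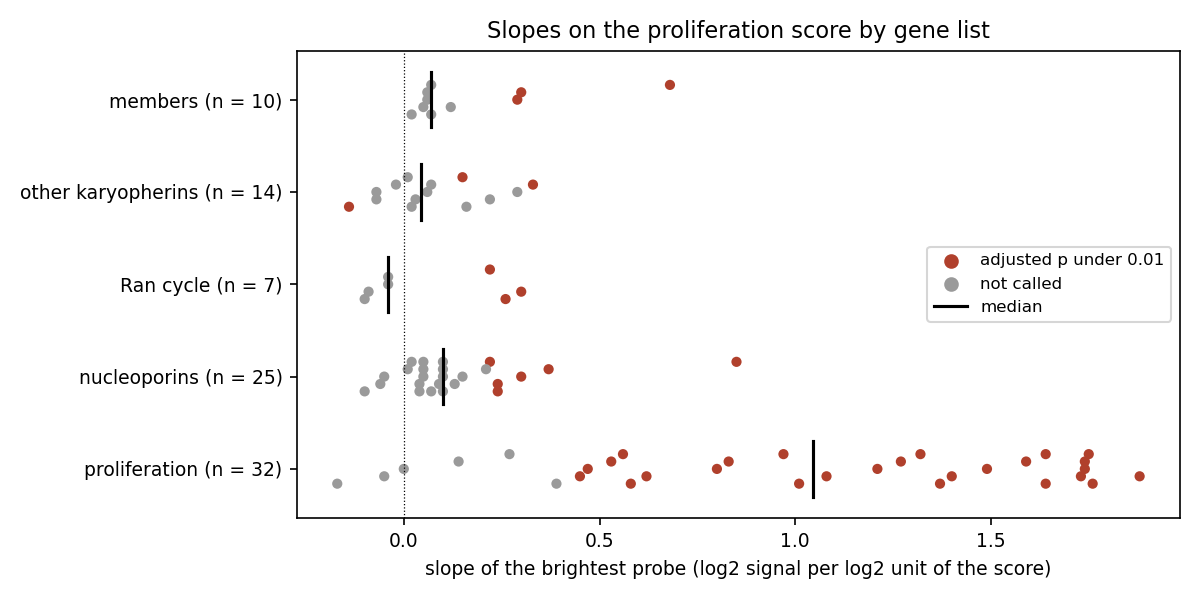
Slope on the proliferation score of the brightest probe of each gene, in log2 signal per log2 unit, by gene list; red marks an adjusted p under 0.01 and the black bar is the list's median. Most members and other transport genes lie between -0.14 and 0.37, KPNA2 and NUP210L lie above that, and the proliferation genes, which make the score, have a median of 1.04.

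Markers of other cell types were set beside these results. The list that moved most with the score was that of neutrophils, with 3 of 6 genes measured: its mean log2 signal ran from 6.41 to 15.54 with a median of 9.25, and it correlated at r = 0.6 with the score, 0.66 with KPNA2, 0.53 with RAN and 0.48 with KPNA6. S100A8 and S100A9 were well above background on 51 arrays and CSF3R, the receptor of granulocyte colony-stimulating factor, on 47. With this mean as a covariate, the KPNA2 slopes were 0.6 and 0.64 (limma adjusted p = 1.85e-11 and 3.68e-11) and those of RAN probes 1 and 2 were 0.29 and 0.27. KPNA6 probe 1 was then not called (0.18, limma adjusted p = 0.25), and XPO1 probes 2 and 3 both were (0.32 and 0.33, limma adjusted p = 0.00228 and 0.000591). RAN probe 3 was not called (0.23, limma adjusted p = 0.0473). The mast cell list, with 6 of 11 genes measured, correlated at -0.12 with KPNA2 and 0.01 with RAN, and at 0.48 with KPNA4 and 0.34 with CSE1L. The fibroblast list, with 8 of 8 genes measured, correlated at -0.53 with KPNA3 and -0.58 with CSE1L, and the keratinocyte list at -0.47 with KPNA4 and -0.44 with KPNB1. The muscle list, with 5 of 7 genes measured and only 2 of these well above background on at least 26 arrays, correlated at 0.4 with KPNA2. The part of these cells in the results was not tested further.

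Between males and females, 0 of the 31 member probes were called by limma, where 0.0573% of all probes were. At an unadjusted p under 0.05 there were 8 member probes, against 2711 of the 43603 probes. The log2 signal of KPNA2 was 11.41 ± 0.75 in males (SD, n = 19) and 11 ± 0.49 in females (n = 30), that of RAN 10.59 ± 0.34 and 10.41 ± 0.19, and that of XPO1 10.2 ± 0.4 and 9.96 ± 0.24. The sexes overlapped in each of these genes, and the lowest adjusted p of a member probe was 0.791. The score itself was higher in males, by 0.6 (0.35 ± 0.9 against -0.25 ± 0.68), with a two-sided permutation p = 0.0109.

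The relation to the score was then compared between the sexes. By limma 0 of the 31 member probes, and 0% of all probes, had a slope that differed between males and females after adjustment, and 12 member probes had an unadjusted p under 0.05, against 3686 of the 43603 probes. The lowest were for XPO1, whose probes had slopes steeper in males by 0.33 to 0.45 (lowest limma adjusted p = 0.237), and RAN (lowest limma adjusted p = 0.329). The r of XPO1 with the score was 0.678 in males, who include LM0, and -0.29 in females. For KPNB1 it was 0.503 and -0.249.

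No member probe passed the test between breed groups. In order of its mean, KPNA2 was at 11.21 ± 0.6 in Boxers (SD, n = 9), 11.18 ± 0.66 in Crossbred dogs (n = 14), 11.16 ± 0.67 in dogs of another breed (n = 17) and 11.13 ± 0.67 in Labrador Retrievers (n = 9), and no neighbors in this order differed by more than their spread. RAN was between 10.47 ± 0.32 and 10.49 ± 0.26 in the 4 groups. By limma 0 of the 31 member probes were called between Boxers and Labrador Retrievers (0.039% of all probes), between Boxers and Crossbred dogs (0.00917%) or between Labrador Retrievers and Crossbred dogs (0.00459%). At an unadjusted p under 0.05 the counts of member probes were 0, 0 and 1, against 1858, 1544 and 1193 of the 43603 probes. The differences of the member probes between Boxers and Labrador Retrievers ran from -0.32 for a KPNA4 probe to 0.25 for a KPNA6 probe. For the slopes on the score, limma called 0 member probes and 0% of all probes in each of the 3 comparisons, and 0, 1 and 1 member probes had an unadjusted p under 0.05, against 3820, 5006 and 2026 of the 43603 probes.

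With age, 0 of the 31 member probes and 0% of all probes were called by limma in the 49 dogs of known age. The slopes of the member probes were between -0.03 and 0.05 per year, and 0 had an unadjusted p under 0.05, against 1063 of all probes.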

How the data were processed

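RNA of 51 tumors was measured on one-color arrays. Scans were read by the authors with Feature Extraction 9.5.1.1 (Agilent), and the processed signal deposited for each array is an intensity with the background subtracted. Intensities quantile-normalized by the authors over the 51 arrays were used as an alternative. Here the processed signal was taken to log2 and quantile-normalized, without control spots and without spots marked as outliers, and replicate spots were averaged per probe, with R 4.3.3, limma 3.58.1, statmod 1.5.0 and the data.table package (version 1.17.8). Limma was fitted over all 43603 probes and checked on simulated data. A gene's value is the mean of its probes well above background on at least 26 arrays. Under each other normalization the score was recomputed from that normalization's values, so the unit of its slopes differs. Of 2297 LOC names, 1514 were named through the RefSeq gene list of UU_Cfam_GSD_1.0. The named genes are the members, the 2 highest and 2 lowest slopes of each list, and the 10 genes most like KPNA2 and 3 most like each other member. Members and lists were chosen with earlier results of these data known. Each tumor is from 1 dog, and the number of arrays limits the precision. Alternatives were other normalizations, scores, covariates, blocks, thresholds and sets of tumors; those without T6.2, without LM0, with the neutrophil list as a covariate or without RAN probe 3, those for the correlation of KPNA2 with RAN, and normexp and the authors' values for the correlations with the score were chosen after seeing the data.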

Additional observations from a re-analysis of the deposited data

Results flagged for a closer look

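In breed groups of 4 to 10 tumors, that is Boxers and Labrador Retrievers, the score and the 10 genes were searched for a tumor that stands apart, by the gap to its neighbor over the range of the group against Dixon's critical value of 0.493 for 9 samples. Of 22 such sets 3 passed, and chance flags about 1 in 20. KPNA1 was at 10.7 in Boxer tumor T114.1, above the 9.56 to 10.12 of the other Boxers (gap over range 0.507). KPNA3 was at 9.77 in Labrador Retriever tumor T107, above the 8.97 to 9.35 of the others (gap over range 0.525). KPNB1 was at 9.3 in Labrador Retriever tumor T83, below the 9.66 to 10.04 of the others (gap over range 0.497). T83 was also the tumor with the lowest KPNA2 signal.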

How the results depend on the processing

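The count of member probes rising with the score was between 5 and 10 under 16 alternatives, against 7, and both KPNA2 probes and RAN probes 1 and 2 were called under each fit. The authors' table gave 7 and the score from the study's markers 5. Over all probes the count was 3539, against 6417 at an adjusted p under 0.05 and 1732 with the neutrophil list. Counts between Boxers and Crossbred dogs ran from 0 to 16, against 4, between Boxers and Labrador Retrievers from 11 to 27, against 17, and between Labrador Retrievers and Crossbred dogs from 1 to 7, against 2. In sex, breed and age, 0 member probes were called under every alternative. For TNPO1, r was 0.355 with the 75th percentile (permutation adjusted p = 0.0235). For XPO1, r was 0.266 with the score from the study's markers and 0.208 without LM0 (permutation adjusted p = 0.114 and 0.243). Uncalled values near 0 changed sign. KPNA3 probe 3 was at -0.01 with the 75th percentile, the mitosis score or the study's markers, and KPNB1 probe 4 at -0.01 with the 75th percentile, the study's markers or sex and age. KPNA4 probe 2 was at -0.03 with the study's markers, with sex and age or without LM0. Without LM0 and T9.1, KPNA3 probe 3 was at -0.04, KPNA4 probe 2 and KPNB1 probe 4 at -0.08 and XPO1 probe 1 at -0.02, and without LM0 alone KPNB1 probe 4 was at -0.06 and CSE1L probe 2 at 0. KPNB1 probe 3 was at 0.04 with normexp and 0.01 with slide as a block or the neutrophil list, which put KPNA4 probe 3 at 0.12 and CSE1L probe 2 at 0.03. For KPNA4, r was -0.000579 with the study's markers, and for CSE1L it was 0.0613 with normexp, 0.00822 in the authors' table and 0.0665 without LM0. The cause was not tested. No paired analysis was possible because replicate numbers in the breed groups only name the samples. Dim probes limit what is known of KPNA6 and RAN probe 3.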
